A study of Mus musculus with 6 samples.

Results

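The planar cell polarity core genes considered here are 10 genes of the pathway, Vangl1, Vangl2, Celsr1, Celsr2, Celsr3, Fzd3, Fzd6, Ptk7, Scrib and Prickle1. They were taken by symbol from the annotation of the mouse 430A array, every probe set that names 1 of them and no other gene. This gave 15 probe sets for 10 of the 12393 genes that the array names, 4 of them for Fzd3, 2 each for Celsr2 and Fzd6 and 1 for each other member. The rule for the members uses symbols and no measured value, but the gene list was drawn up with earlier results of these data known. Total RNA of rhombomere 4, the hindbrain segment whose identity Hoxb1 specifies, was hybridised to 3 arrays from wild-type mouse embryos and 3 from Hoxb1 mutant embryos, all at E10.5. Each array held 1 pool of segments from several embryos, and the pools were stated to be independent biological replicates. The labels say only "mutant", with no allele or strain, so the Hoxb1 allele is unnamed in what was used here. They also say that the dissected tissue included branchial arches around the segment, so the arrays report on a mixture of neural tube, crest mesenchyme, vessels and blood. In such bulk tissue fewer cells of a type and less RNA per cell cannot be told apart.

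Planar cell polarity aligns cells within the plane of a tissue. Celsr, Frizzled and Vangl proteins sit at cell borders, where Celsr cadherins bridge neighbouring cells and the Frizzled and Vangl complexes take opposite sides, with Prickle and Dishevelled proteins inside the cell. In the hindbrain the pathway is best known for the facial branchiomotor neurons. These are born in rhombomere 4 and migrate tailwards, a movement that fails or is misdirected in mice lacking Vangl2, Celsr1, Celsr2, Fzd3, Ptk7 or Scrib function. The comparison asks whether transcripts of the core genes differ in this segment when Hoxb1 is mutated.

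The deposited values are intensities in array units on a linear scale, scaled so that each array has the same trimmed mean. Each difference is the mutant mean less the wild-type mean of log2(intensity + 16), with the standard error (SE) of limma's moderated fit. The added 16 makes the differences of dim probe sets smaller. Tests were 2-sided and adjusted by Benjamini-Hochberg over all 22626 probe sets tested, with a threshold of 0.05. Probe sets against bacterial RNA, used as controls, had a 95th percentile of 61.5, taken here as background. The median intensity lay between 187 and 214 on the 6 arrays, and arrays correlated at 0.976 to 0.984 within groups and 0.973 to 0.983 between them. On wild-type replicates 2 and 3 the control signal of 18S ribosomal RNA was high (12.1 and 11.3 in log2 units), while it ran from 6.36 to 7.03 elsewhere. Hoxb1, the targeted gene, gave 341, 378 and 588 on the wild-type arrays and 60.8, 35.3 and 50.03 on the mutant arrays, so the mutants lay at background. No source used here tells whether its probe set lies in the altered part of the gene. Precision was limited by the number of arrays.

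Planar polarity transcripts were present in both groups, and none of the 10 genes passed the test. In limma 0 of the 15 probe sets had an adjusted p under 0.05, with adjusted p of 0.833 to 0.993, as did 0 of all 22626 (0% called). Over 16 alternative settings the smallest limma adjusted p of a member ran from 0.522, with array weights, to 1.00. An unadjusted p under 0.05 was reached by 1 of the 15 (6.67%), beside 1303 of all probe sets (5.76%), a share near the background. It was lower in mutants, as were 3.88% of all probe sets at that p. The mutant mean was lower in 10 of 15 probe sets, beside 54.2% of all probe sets, and the median log2 difference was -0.19 for the members and -0.02 over all probe sets. Centring each array on its median moved the share of all probe sets that were lower to 43.6%, while 10 of 15 member probe sets were still lower. With the 18S signal as a covariate 8 of 15 were lower, beside 54.1% of all probe sets, and without both wild-type arrays of high 18S signal 8 of 15, beside 55.4%, so the share of lower members was then no larger than that of all probe sets. In 3 of the 15 the mutant arrays were all below the wild-type arrays, all of them in Celsr1 and Celsr2, beside 7.08% of all probe sets in that direction. In 0 of the 15 were they all above, beside 4.88% of all. The unadjusted 95% interval of the difference excluded a log2 value of -1 in 13 of the 14 probe sets above background, all but that of Celsr3, and of 1 in 14 of 14.

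**Figure D1:**
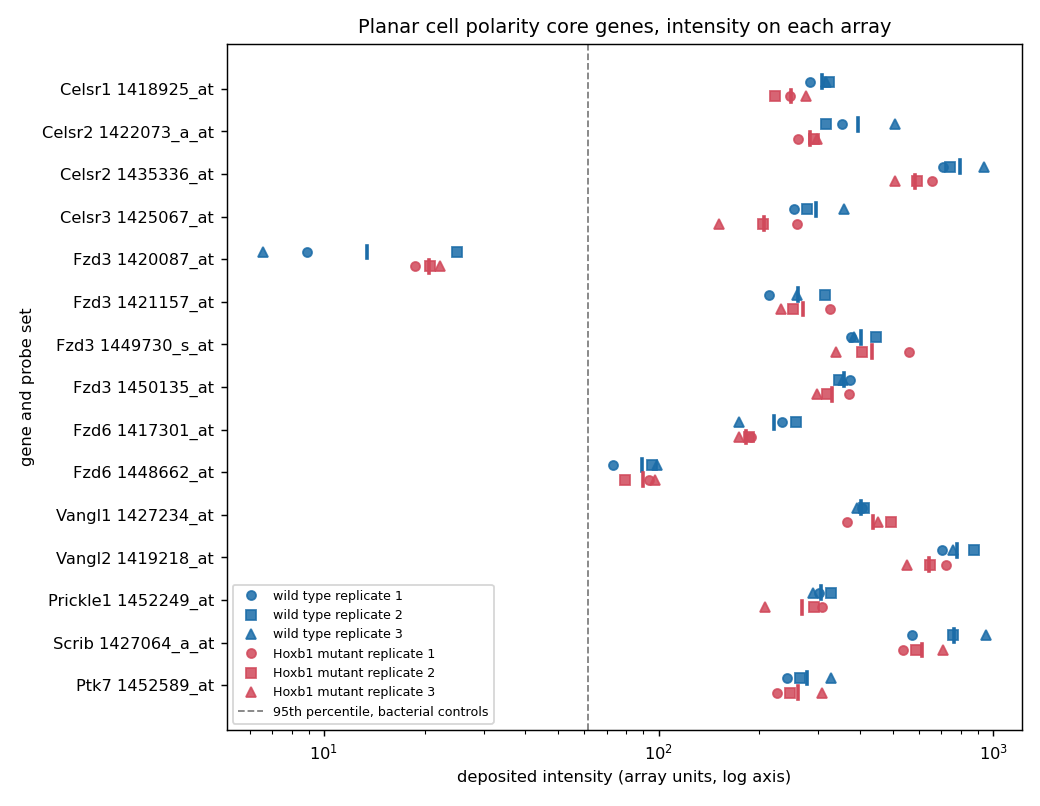
Deposited intensity on a log axis for each of the 15 probe sets of the 10 planar polarity genes, with wild-type arrays in blue, Hoxb1 mutant arrays in red, 1 marker shape per replicate number and a vertical bar at each group's mean. The dashed line is the bacterial 95th percentile of 61.5. The groups are separate in the probe sets of Celsr1 and Celsr2 and overlap in all others, and 1 probe set of Fzd3 lies below the line on all 6 arrays.

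For a view of the sequence at these genes, the stretches before the annotated start were taken from RefSeq (assembly GRCm38.p6), which held a start window for 5 of the 10 members and for Hoxb1. They were searched for TGATNNAT, the letters of a joint Hox and Pbx binding site, on both strands, in the 250 bases before each start. Of all 32851 such windows 7.68% held a match. Those of Vangl2, Celsr2, Celsr3, Ptk7 and both starts of Prickle1 held 0 matches, and that of Hoxb1 held 1. The stretches are shown for Celsr3, the member with the largest fitted difference in either direction, for Vangl2, the membrane protein at the centre of the pathway, and for Hoxb1, whose window carries the match, shown in capitals. The windows of Celsr2, Ptk7 and both starts of Prickle1 lie within the annotated span of their gene, with 0 bases before its outermost start. They are not shown. Each stretch shown ends before the outermost annotated start of its gene. They lie at chr9:108825795-108826022 on the plus strand for Celsr3, 228 bases, at chr1:172027319-172027545 on the minus strand for Vangl2, 227 bases, and at chr11:96365508-96365745 on the plus strand for Hoxb1, 238 bases.
Celsr3: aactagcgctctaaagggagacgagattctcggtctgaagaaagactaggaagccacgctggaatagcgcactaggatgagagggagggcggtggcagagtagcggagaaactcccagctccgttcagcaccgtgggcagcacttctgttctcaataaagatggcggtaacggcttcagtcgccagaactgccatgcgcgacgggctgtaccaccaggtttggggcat
Vangl2: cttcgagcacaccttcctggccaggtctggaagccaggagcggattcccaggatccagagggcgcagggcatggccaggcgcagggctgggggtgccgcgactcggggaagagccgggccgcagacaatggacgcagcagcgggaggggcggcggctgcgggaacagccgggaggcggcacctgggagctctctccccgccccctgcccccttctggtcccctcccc
Hoxb1: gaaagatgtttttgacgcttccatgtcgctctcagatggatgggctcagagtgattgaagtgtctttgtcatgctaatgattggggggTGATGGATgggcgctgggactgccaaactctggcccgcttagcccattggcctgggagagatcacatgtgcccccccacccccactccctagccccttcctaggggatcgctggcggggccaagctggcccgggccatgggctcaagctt
The match in the Hoxb1 stretch reads TGATGGAT. A match is only a run of letters, and its absence says only that these letters are not in these windows.

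In the core itself, the Celsr genes encode large cadherins with a 7-helix membrane part, the mammalian relatives of Flamingo, which hold polarity complexes together across cell borders. Their 4 probe sets had the 4 largest differences towards lower values in mutants among the 15, from -0.29 to -0.51. The smallest of them, Celsr1 at -0.295, was hardly apart from Scrib at -0.289 and Vangl2 at -0.275. With the 18S signal as a covariate Fzd6 1417301_at (-0.28) had a larger difference than Celsr1 (-0.19), so this ranking depended on the setting. Celsr1, which acts in progenitors and in directing facial neurons tailwards, gave 284, 323 and 317 on the wild-type arrays and 247, 223 and 275 on the mutant arrays. Every mutant array was below every wild-type array, by a narrow margin between mutant replicate 3 and wild-type replicate 1. The log2 difference was -0.29 (SE 0.13, limma unadjusted p = 0.0520, adjusted p = 0.833).

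Celsr2, found in progenitors and in neurons, had 2 probe sets, and both gave a log2 difference of -0.43. In the brighter probe set, 1435336_at, wild-type arrays gave 706, 744 and 935 and mutant arrays 654, 590.4 and 508. The groups did not overlap, and wild-type replicate 3 stood well above the other two of its group. It had the smallest p of the 15 (SE 0.16, unadjusted p = 0.0307, limma adjusted p = 0.833). Without wild-type replicate 3 the difference was -0.31 (unadjusted p = 0.0880 in limma). In the other, 1422073_a_at, wild-type arrays gave 353, 317 and 509 and mutant arrays 260.3, 291 and 298. Again the groups did not overlap and wild-type replicate 3 was the highest array (SE 0.19, unadjusted p = 0.0588, limma adjusted p = 0.833), and without that array the difference was -0.23. In both, the exact permutation test of the 6 arrays gave p = 0.1, the smallest that 3 against 3 allows.

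Celsr3, the member of the family found mainly in postmitotic neurons and known for its part in axon tracts, gave 254, 278 and 357 on wild-type arrays and 260, 206 and 152 on mutant arrays (probe set 1425067_at). The groups overlapped, since mutant replicate 1 lay above wild-type replicate 1. The log2 difference was -0.51 (SE 0.22, 95% interval -1.03 to 0.01, unadjusted p = 0.0533, limma adjusted p = 0.833); its lower bound was the lowest of the 15. Without mutant replicate 3 the difference was -0.32 (unadjusted p = 0.157 in limma).

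Neuron markers also had lower means in mutants, none past the test. All 9 neuron markers (Tubb3, Elavl3, Elavl4, Stmn2, Dcx, Map2, Snap25, Nefl and Ina) were lower, 0 with an unadjusted p under 0.05, with a median log2 difference of -0.22. Their summed intensity was 12438, 12005 and 13871 on the wild-type arrays and 12972, 11010 and 9313 on the mutant arrays, and 0 of the 9 were at background on all arrays. Wild-type replicate 3 and mutant replicate 3 were the highest and the lowest array for Celsr3, the brighter Celsr2 probe set and the sum of the neuron markers. The summed progenitor markers had the same highest and lowest array (11722 and 9277), so this order was not particular to neuron markers. Taken singly, Tubb3, Dcx, Snap25 and Ina had this order, while Elavl3, Elavl4, Stmn2, Map2 and Nefl did not. The other Celsr probe sets did not follow that order, since mutant replicate 3 was the highest mutant array for Celsr1 and for Celsr2 1422073_a_at. Read against 5.45% of all genes at an unadjusted p under 0.05 and 54.5% with a lower mean, 1 probe set per gene, the other lists gave these counts. Of 5 measured branchiomotor markers all were lower, with Phox2a at an unadjusted p under 0.05, and the sums ran from 2162 to 2528 in wild type and from 1910 to 2122 in mutants. Isl1, whose groups overlapped (log2 difference -0.16, SE 0.11), made up most of these sums, 1692.5 of a mean of 2354.7 in wild type. Of 8 progenitor markers 6 were lower, Sox3 and Msi1 with an unadjusted p under 0.05, and the sums ran from 10285 to 11722 and from 9277 to 10007. Of 10 markers of crest and arch mesenchyme 8 were lower, 0 of them with such a p, and the sums were 11273 to 12886 and 10381 to 11173. The 7 other marker lists were crest glia, endothelium, primitive erythroid cells, surface epithelium, macrophages, muscle and otic epithelium. Their median log2 differences ran from -0.30 in macrophages to 0.13 in erythroid cells. In the crest glia list Sox10 was lower (-0.40) at an unadjusted p under 0.05, while Erbb3 had -0.04 and Foxd3 0.0092. Myf5 of the muscle list was at background. The part of these cell types in the Celsr values was not tested.

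**Figure D2:**
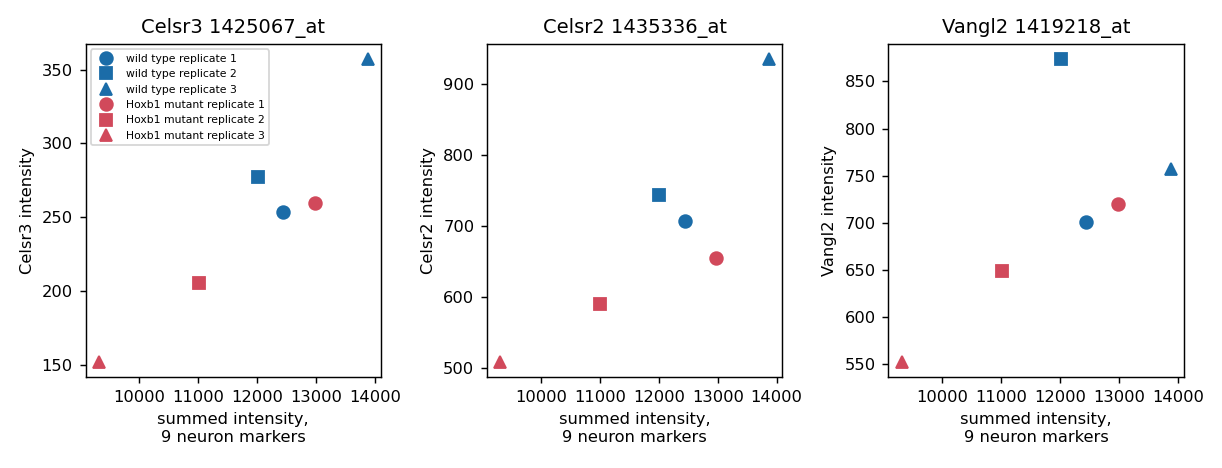
Intensity of 1 probe set each of Celsr3, Celsr2 and Vangl2 (vertical axes, array units) against the summed intensity of 9 neuron markers (horizontal axes, array units) on the 6 arrays, wild type in blue and Hoxb1 mutant in red, 1 marker shape per replicate number. Mutant replicate 3 is lowest on both axes in all 3 panels, and mutant replicate 1, at a neuron sum of 12972, lies among the wild-type arrays on the horizontal axis. Mutant replicate 3 was also the lowest array for the summed progenitor markers, which are not drawn. The 3 probe sets were chosen after their values were seen.

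The Celsr differences were smaller in the 2 settings that address the high 18S signal of 2 wild-type arrays. That signal was high on wild-type arrays only, so these settings cannot fully separate it from genotype. With the 18S signal as a covariate the log2 differences were -0.19 for Celsr1, -0.38 and -0.30 for Celsr2 (1422073_a_at and 1435336_at) and -0.32 for Celsr3. Their SEs were larger in that fit, from 0.18 for Celsr1 to 0.30 for Celsr3, with limma unadjusted p of 0.229 to 0.331. Without both arrays they were -0.19, -0.31, -0.27 and -0.31, where the single wild-type array left is assumed to vary like the mutants. The sign stayed the same in all 4 probe sets under each of 16 alternative settings. A kept sign was not particular to the Celsr genes. No reversal was seen either in Vangl1, Vangl2, Prickle1, Fzd6 1417301_at, Fzd3 1450135_at or Fzd3 1420087_at, the last of them at background.

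Fzd3 and Fzd6 encode Frizzled receptors that work together in planar polarity. Fzd3 had 4 probe sets that differed among themselves. Probe set 1421157_at gave 214, 313 and 258 in wild type, against 326, 252 and 232 in mutants, a log2 difference of 0.04 (SE 0.19). Probe set 1449730_s_at gave 375, 446 and 382 against 559, 404 and 339, a difference of 0.09 (SE 0.19). In both, mutant replicate 1 was the highest of the 6 arrays and mutant replicate 3 was below its group's other arrays, so the groups overlapped widely. Without mutant replicate 1 both differences turned negative, to -0.09 and -0.11.

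The third Fzd3 probe set, 1450135_at, built in the annotation on the same sequence record as 1421157_at, gave 373, 345 and 355 against 370, 318 and 298 (log2 difference -0.12, SE 0.12). The groups overlapped through mutant replicate 1 alone. The fourth, 1420087_at, gave 8.89, 24.97 and 6.56 against 18.8, 20.7 and 22.3, at background on every array, so its fitted difference of 0.36 (SE 0.23) is not a measure of Fzd3. Of the 3 Fzd3 probe sets above background, unadjusted p ran from 0.361 to 0.823.

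Fzd6, the partner receptor, gave 234, 257 and 173 in wild type, against 188, 186 and 173 in mutants with probe set 1417301_at. The mutant arrays lay close together in the lower part of the wild-type range, with wild-type replicate 3 at the level of the lowest mutant array (log2 difference -0.24, SE 0.16, unadjusted p = 0.178). Without that array the difference was -0.39 and without wild-type replicate 2 it was -0.13. The dimmer probe set 1448662_at, listed under the same sequence record, gave 72.9, 95.8 and 98.9 against 93.5, 79.2 and 97.3, a difference of 0.02 (SE 0.15). The groups overlapped throughout, and all 6 arrays lay above the bacterial 95th percentile by a small margin, with the brightest bacterial control value at 122. The 2 probe sets thus had differences of opposite sign, and neither passed the test.

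**Figure D3:**
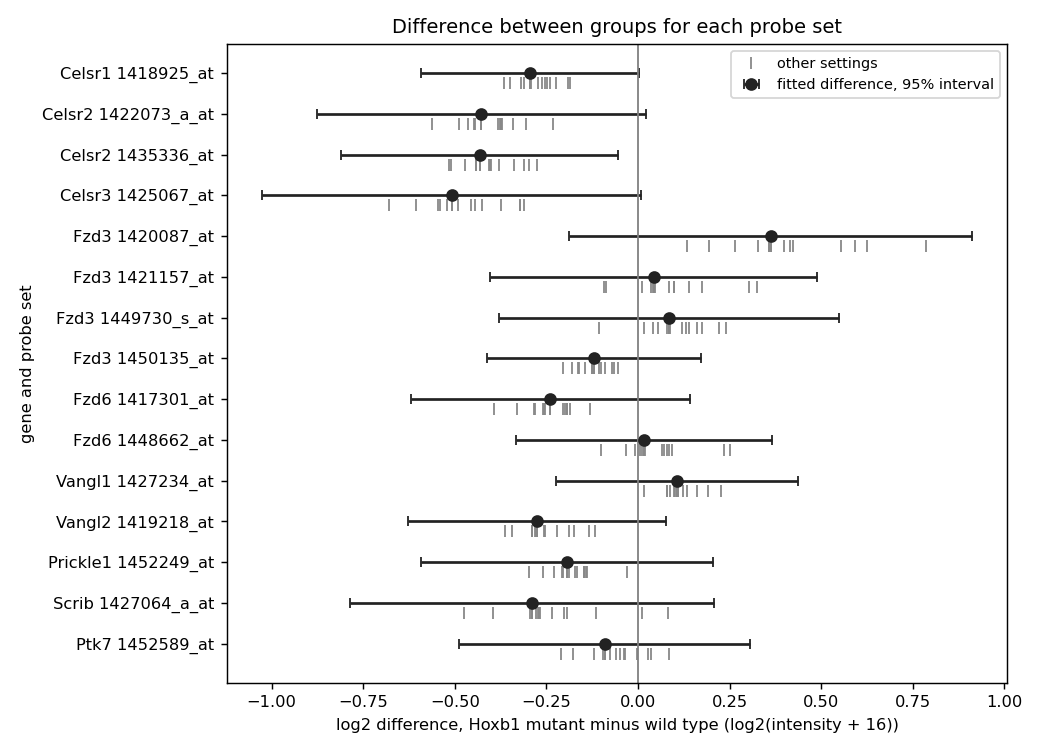
Log2 difference, mutant minus wild type, for each of the 15 probe sets (points, with the unadjusted 95% interval of limma's fit as bars) and the value of the same difference under each alternative setting (grey ticks). The interval of 1 probe set, Celsr2 1435336_at, lies wholly below 0. The ticks stay on 1 side of 0 for each probe set of the Celsr and Vangl genes and for Prickle1. They also do for Fzd6 1417301_at, Fzd3 1450135_at and Fzd3 1420087_at, the last of them at background.

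Vangl1 and Vangl2 encode the membrane proteins related to Van Gogh, which recruit Prickle and oppose Frizzled at the cell border. Vangl2, the gene mutated in the Looptail mouse, gave 701, 874 and 757 on the wild-type arrays and 720.3, 649 and 552 on the mutant arrays (probe set 1419218_at). Only mutant replicate 1 entered the wild-type range. The log2 difference was -0.27 (SE 0.15, 95% interval -0.63 to 0.08, unadjusted p = 0.107, limma adjusted p = 0.833). With the 18S signal as a covariate it was -0.12 (SE 0.20), and without mutant replicate 3 it was -0.18.

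Vangl1, its paralog, gave 405, 412 and 392 in wild type, against 367, 496 and 453 in mutants (probe set 1427234_at). The wild-type arrays lay close together, with an SD of 9.89 beside 65.7 in mutants, and the mutant arrays spread to both sides of them. The log2 difference was 0.11 (SE 0.14, 95% interval -0.22 to 0.44, unadjusted p = 0.467), so the fitted values of the 2 Vangl genes had opposite signs. That of Vangl1 was 0.016 without mutant replicate 2 and 0.23 without mutant replicate 1. Whether the 2 genes differed from each other in response was not tested.

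Prickle1, a LIM-domain protein that acts inside the cell with Vangl, gave 300.5, 327 and 290.2 in wild type, against 308, 291 and 207 in mutants (probe set 1452249_at). Mutant replicate 3 alone lay below the wild-type range (log2 difference -0.19, SE 0.17, unadjusted p = 0.284). Without it the difference was -0.03.

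Scrib, a scaffold with PDZ domains that binds Vangl2 and also acts in apicobasal polarity, gave 573, 757 and 953 in wild type, against 536, 589 and 708 in mutants (probe set 1427064_a_at). Wild-type replicates 2 and 3, those of high 18S signal, stood above all mutants, and wild-type replicate 1 lay within the mutant range. The log2 difference was -0.29 (SE 0.21, unadjusted p = 0.210), and it was 0.012 with the 18S signal as a covariate and 0.082 without both arrays. Without wild-type replicate 1 it was -0.47 and without wild-type replicate 3 -0.11. Ptk7, a receptor with an inactive kinase domain that acts in neural tube closure, gave 242, 265 and 327 against 227, 247 and 307 (probe set 1452589_at). The groups overlapped over most of their range (log2 difference -0.09, SE 0.17, unadjusted p = 0.605), and the sign turned with the same 2 settings, to 0.035 and 0.086.

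Genes around the core, in 7 groups by role, showed 0 of 73 measured genes past the test in limma. An unadjusted p under 0.05 was reached by 5 of the 73 (6.85%), all lower in mutants, beside 5.45% of all 12393 genes and 3.75% in that direction, with 1 probe set per gene, the brightest. A lower mean was found for 48 of the 73, beside 54.5% of all genes, and the median log2 difference was -0.08, beside -0.02 over all genes. On the same basis the 10 core genes had a median of -0.26, with 8 of 10 lower, 1 at an unadjusted p under 0.05, and 2 with all mutant arrays below all wild-type arrays (7.33% of all genes). When the log2 values of each gene were averaged over its probe sets in place of taking the brightest, 3 of the 10 core genes, Celsr1, Celsr2 and Celsr3, had an unadjusted p under 0.05, beside 6.04% of all genes, and their limma adjusted p were 0.785 to 0.787. Celsr1 and Celsr3, with 1 probe set each, had the same differences in that fit and smaller SEs (0.12 and 0.21). The wider genes had 6 of 73 on that basis. A further 27 genes of the lists were not analysed here, among them 7 of the 8 in the Fat and Dachsous list and 4 of the 5 effectors of ciliogenesis.

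Among ligands, 1 of 7 had an unadjusted p under 0.05. Wnt5a, a Wnt of the non-canonical pathway that sets polarity in several tissues, gave 328, 303 and 328 in wild type, against 278, 239 and 249 in mutants, without overlap (log2 difference -0.31, SE 0.11, unadjusted p = 0.0308, limma adjusted p = 0.833). Wnt7b gave 727, 966 and 930.2 against 824, 672 and 487, with mutant replicate 1 inside the wild-type range (-0.41, SE 0.22, unadjusted p = 0.0990). The 2 ligands both had lower means, while the list as a whole had 4 of 7 lower.

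Among 16 other receptors, co-receptors, glypicans and secreted Frizzled-related proteins, 10 had a lower mean and 1 an unadjusted p under 0.05. Sfrp2, a secreted protein that binds Wnt ligands, gave 2292, 2402 and 3212 in wild type, against 1657, 1718 and 2040.0 in mutants, with no overlap (log2 difference -0.53, SE 0.17, unadjusted p = 0.0172, limma adjusted p = 0.833). The glypican Gpc6 gave 308, 282 and 356 against 414, 372 and 361, all 3 mutants above the wild types (0.27, SE 0.13, unadjusted p = 0.0793).

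Cytoplasmic components and regulators of the core had 9 of 13 lower and 2 with an unadjusted p under 0.05. Sec24b, a coat protein of vesicles leaving the endoplasmic reticulum that sorts Vangl2 towards the cell surface, had the smallest p of the 73. It gave 790.1, 697 and 836 in wild type, against 485, 617 and 459 in mutants, with no overlap (log2 difference -0.57, SE 0.15, unadjusted p = 0.00781, limma adjusted p = 0.765). Nkd2, a Dishevelled-binding protein, gave 242, 257 and 277 against 208, 208 and 215 (-0.28, SE 0.11, unadjusted p = 0.0383). Both had every mutant array below every wild-type array.

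Of 20 apicobasal partners of Scrib and the Par complex, 13 were lower and 1 had an unadjusted p under 0.05. This was Crb1, of the Crumbs family, at 220, 269 and 258 in wild type, against 207, 196 and 163 in mutants, without overlap (-0.37, SE 0.14, unadjusted p = 0.0331). Arhgef7, an exchange factor that binds Scrib, had -0.23 (SE 0.18). Fjx1, the relative of Four-jointed in the Fat and Dachsous system, and the ciliogenesis effector Wdpcp, each the 1 measured member of its list, had differences of -0.06 (SE 0.19) and -0.0022 (SE 0.16).

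**Figure D4:**
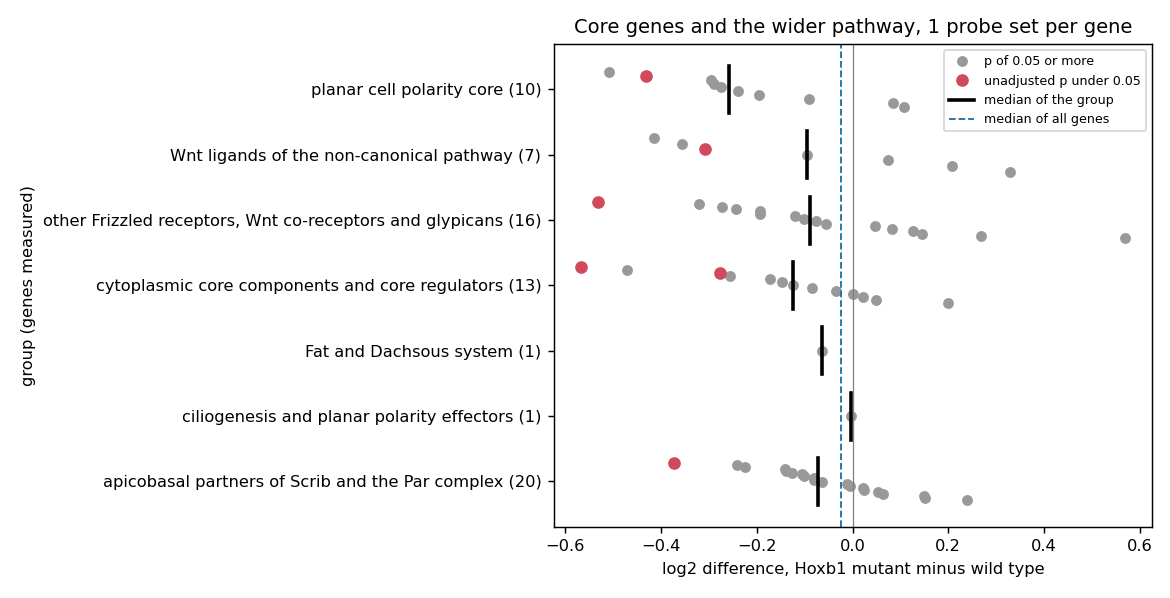
Log2 difference, mutant minus wild type, of each measured gene of the planar polarity core and of 6 groups around it, 1 probe set per gene, with genes at an unadjusted p under 0.05 in red, group medians as black bars and the median of all genes, -0.02, as a dashed line. The core has its median at -0.26, and the red points, 1 in the core and 5 around it, all lie below 0.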

How the data were processed

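Rhombomere 4 tissue of 3 wild-type and 3 Hoxb1 mutant pools was measured on 6 Affymetrix mouse 430A arrays, 1 per pool. The authors deposited 1 linear intensity per probe set and array. Per the submitters' processing notes affy was used, and no source names the expression algorithm. Of the 22690 values on each array, the mean after a trim of 2% at both ends came to 500.0. The 64 Affymetrix controls stayed out of the tests, and 27 of them, against bacterial RNA, gave the background. Group differences were fitted on log2(intensity + 16) over 22626 probe sets, without covariates (limma 3.58.1, R 4.3.3, functions lmFit and eBayes, no trend). The fit was run on simulated data with known changes and independent noise. Only its mean estimates were checked against the changes put in, and no rate of detection is given.

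Every probe set of the members is named, with Hoxb1 and the 2 genes of smallest p of each wider list, of which 1 list, counted in the totals, is not reported here. Further markers named were chosen after their values were seen. The members, lists and alternatives were chosen with earlier results of these data known. Gene names came from the platform annotation and from a RefSeq table of GRCm38.p6.

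Alternatives were quantile normalization, array medians, a filter on dim probe sets, pseudocounts of 1 and 64, eBayes with trend, weights per array, a block on replicate number, 18S signal in the model and dropping arrays. The mean of a gene's probe sets was also used, for the wider lists and, added after the data were seen, for the members. The limma p-values set the group difference against the spread between pools, with a variance moderated over all probe sets tested.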

Additional observations from a re-analysis of the deposited data

How the results depend on the processing

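No member probe set and no gene of the wider lists passed an adjusted p of 0.05 in any of the alternatives run. Over all probe sets the number past it was 0, and it was 3 with quantile normalization, 4 with centring on array medians, 2 with the filter on dim probe sets, 3 with trend and robust settings and 4 with array weights. The number of member probe sets with an unadjusted p under 0.05, which was 1, became 2 with centring on array medians, 4 with the filter on dim probe sets, 4 with a pseudocount of 64, 3 with trend and robust settings, 3 with array weights and 0 with the 18S covariate. Leaving out each array gave 0 to 3, beside 4.68% (without mutant replicate 2) to 8.73% (without mutant replicate 1) of all probe sets. The number was 0 without mutant replicate 2, 3 without wild-type replicate 2 and 2 without either replicate 1. Of the 3, 1 was Fzd3 1420087_at, at background and higher in mutants (0.63), and this probe set was also the 1 left without both wild-type arrays of high 18S signal (0.55). With averages over the probe sets of each gene the number of member genes went from 1 to 3 of 10, an alternative chosen after seeing the data. The number of wider genes, 5, became 8 with array weights, 1 with the 18S covariate and 0 without both wild-type arrays of high 18S signal. Leaving out each array gave 2 to 5, with 3 without either replicate 3 and 2 without mutant replicate 2. Under the replicate block the numbers were 0 for all probe sets, 0 for members and 3 for wider genes. Deviations of same-numbered arrays correlated at 0.05, -0.02 and 0.04. Such values cannot tell whether the pools were collected in pairs, and the sample titles carry matching codes in the 2 groups.

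The sign of a member's difference turned with the 18S covariate in Ptk7 (0.035) and Scrib (0.012), and without both wild-type arrays of high 18S signal in the same genes (0.086 and 0.082). Leaving out 1 array turned it in 4 probe sets, Fzd3 1421157_at (range -0.093 to 0.17), Fzd3 1449730_s_at (-0.11 to 0.24), Fzd6 1448662_at (-0.10 to 0.092) and Ptk7 (-0.21 to 0.026). The cause was not tested.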
